A study of Mus musculus with 12 samples.

Results

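The expressed genes of mouse chromosome 12 were examined in embryonic stem cells (ESC) and in induced pluripotent stem cells (iPSC), which are somatic cells returned to pluripotency. Members were the rows placed on chromosome 12 by gene number in assembly GRCm38 whose mean log2 level over all 12 arrays exceeded 5, without microRNA genes and without Meg3, Rian and Dlk1. Of 25206 probe sets, 887 named ones lay on the chromosome, 70 were left out by symbol (26 of them above the level), 497 were at or below the level, and 320 remained as members. They comprised 295 protein-coding genes and 25 others: 7 lncRNAs, 6 small nucleolar RNAs, 5 immunoglobulin V segments, 4 pseudogenes, 2 guide RNAs and 1 unclassed RNA. Members were chosen by their mean level alone among measured values, and the chromosome itself was taken up because its genes differed between iPSC and ESC. That contrast is therefore given as a description for the chromosome, with no test of the whole.

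Both cell types were female, of strain background C57BL/6, and grown undifferentiated and feeder-free in 2iLIF on gelatin. They were stained with TMRM, a dye that accumulates in polarised mitochondria, and sorted into a fraction of low and a fraction of high membrane potential. The resulting groups were ESC low, ESC high, iPSC low and iPSC high, with 3 Affymetrix arrays each, numbered 2, 3 and 4. How many lines were used, from which cell the iPSC came and how they were reprogrammed is not stated in the sources. No label ties the arrays of a group to separate cultures, so each p-value reflects spread among these samples only, and that spread may be technical. Of 10 pluripotency markers 9 had a mean level above 5, and their mean lay between 7.91 and 8.21 in every array. Of 9 measured fibroblast markers none was above 5, and their mean lay between 2.55 and 2.72. Of the other early lineage markers, 0 of 5 neural, 1 of 4 mesoderm, 0 of 5 endoderm and 2 of 5 trophoblast genes were above 5, and no marker differed between iPSC and ESC at an adjusted p under 0.05 (limma).

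Mouse chromosome 12 is an autosome with its centromere at one end. It carries genes of the naive pluripotency programme (Esrrb and Tcl1), the growth regulator Mycn, the de novo DNA methyltransferase Dnmt3a, the microRNA-processing enzyme Dicer1, the immunoglobulin heavy chain locus and the imprinted Dlk1-Dio3 domain. Most of the remaining genes serve basic cell functions and have little in common beyond their place on the chromosome.

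Promoter sequences are shown for some members above, near and below the chromosome median of the differences described in the following paragraphs. They are examples and not the most extreme members. RefSeq promoters (GRCm38.p6) were matched by gene number for 274 of 320 members, 47 of them with several windows, of which the first listed was used. The 250 bases before the start were searched on both strands for the letters TATAAA (the TATA box), for CCAAT (the box of that name) and for GGGCGG (the GC box), and the last 120 are printed 5′ to 3′ on the gene's strand with matches in capitals. Windows of other members are not printed, and those of Jdp2, Eapp, Tmx1 and Ahsa1 held none of these motifs in the 250 bases. Of the printed members, Syne2, Npc2, Tcl1 and Zfp36l1 lay above the chromosome median, Adam17 and Rpl36al at it, and Sptssa and Jkamp below it. The windows are chr12:75818198-75818317 (plus strand) for Syne2, chr12:84773113-84773232 (minus strand) for Npc2, chr12:105222738-105222857 (minus strand) for Tcl1 and chr12:80113014-80113133 (minus strand) for Zfp36l1. They are chr12:21373633-21373752 (minus strand) for Adam17, chr12:69184068-69184187 (minus strand) for Rpl36al, chr12:54656573-54656692 (minus strand) for Sptssa and chr12:72085719-72085838 (plus strand) for Jkamp.
Syne2: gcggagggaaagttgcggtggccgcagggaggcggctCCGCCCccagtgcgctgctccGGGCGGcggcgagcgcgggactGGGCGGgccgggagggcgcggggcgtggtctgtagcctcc
Npc2: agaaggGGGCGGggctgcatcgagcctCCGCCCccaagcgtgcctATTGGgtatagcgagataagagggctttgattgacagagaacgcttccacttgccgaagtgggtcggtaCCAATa
Tcl1: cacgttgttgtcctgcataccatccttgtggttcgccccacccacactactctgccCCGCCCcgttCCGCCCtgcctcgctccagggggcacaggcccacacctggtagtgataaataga
Zfp36l1: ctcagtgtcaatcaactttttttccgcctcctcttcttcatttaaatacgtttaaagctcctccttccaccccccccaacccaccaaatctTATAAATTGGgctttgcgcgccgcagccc
Adam17: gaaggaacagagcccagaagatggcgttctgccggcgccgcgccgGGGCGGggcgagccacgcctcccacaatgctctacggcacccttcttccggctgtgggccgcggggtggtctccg
Rpl36al: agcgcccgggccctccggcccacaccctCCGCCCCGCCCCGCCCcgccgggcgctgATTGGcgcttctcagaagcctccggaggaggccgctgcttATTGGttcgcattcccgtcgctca
Sptssa: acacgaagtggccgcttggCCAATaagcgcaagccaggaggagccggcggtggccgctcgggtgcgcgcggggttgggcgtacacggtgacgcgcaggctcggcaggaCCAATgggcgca
Jkamp: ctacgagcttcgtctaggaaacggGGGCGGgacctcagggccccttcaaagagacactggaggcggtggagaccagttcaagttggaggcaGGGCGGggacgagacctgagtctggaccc

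The GC box was the motif most often found among members. It occurred in 61.3% of the 274 member promoters and in 32.9% of all 27025 promoters in the table, the TATA box in 3.65% against 13.0%, and the CCAAT box in 36.1% against 34.5%. Member promoters held a median of 19 CpG and 62.2% G+C, against 6 CpG and 52% over all promoters, a set that includes genes not expressed here. The TATA box of Zfp36l1 overlaps its reverse CCAAT box. The size of the difference between the cell types did not order with CpG number. The median log2 difference was -0.34 for the 93 members with up to 14 CpG. It was -0.35 for the 103 with 15 to 24, and -0.32 for the 78 with 25 or more. These matches are letters in a window and carry no statement about binding.

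Levels of nearly all members were lower in iPSC than in ESC, by a similar amount. The median log2 difference (iPSC minus ESC, averaged over both fractions) was -0.32, a level 1.25-fold or 20.1% lower in iPSC. Of 320 members, 306 lay below 0 and 14 above. The quartiles were -0.42 and -0.23, and the 5th and 95th percentiles -0.56 and -0.04. Taken singly, 149 members (46.6%) were lower and 2 (Smoc1 and Syne2) were higher at an adjusted p under 0.05 (limma, adjusted over all probe sets). Over all probe sets 1.96% were lower and 0.916% higher by that rule. Since the chromosome was chosen in this contrast, nothing is read from the difference between these shares. In 143 members every iPSC array lay below every ESC array, and in 1 every iPSC array lay above. For all probe sets these shares were 1.75% and 1%. When low and high arrays of 1 number were averaged first (3 against 3), 10 members were lower and 1 was higher, all of them among the calls of the full fit. Without the iPSC high array 4 the lower calls numbered 92. The level threshold acts on the mean of all arrays, so 14 members passed it with an iPSC mean of 5 or less, through their ESC arrays, and Lsmem1 passed through its iPSC arrays. Among the 305 members with both means above 5, the median was -0.32 and 144 were called lower.

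**Figure D1:**
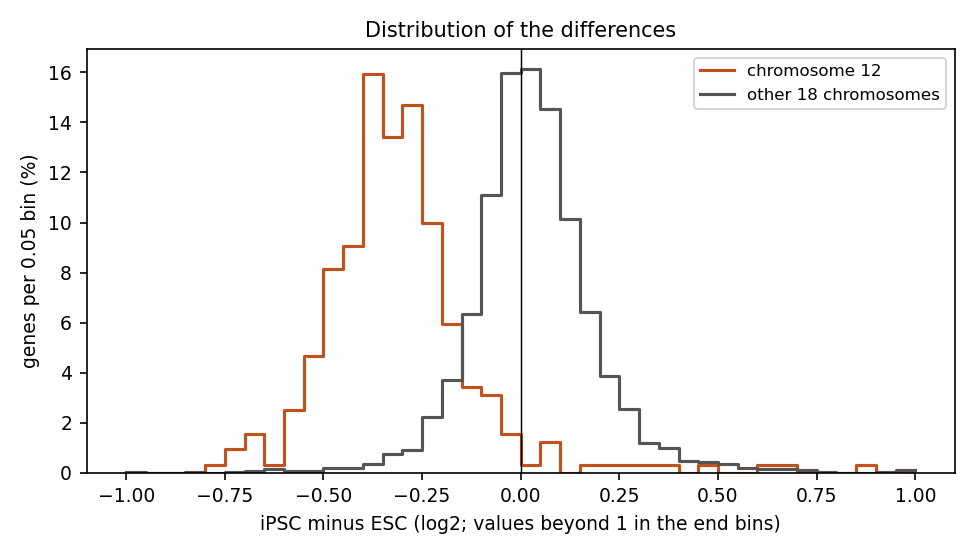
Share of genes (percent per bin of 0.05) by log2 difference, iPSC minus ESC, for the 320 expressed genes of chromosome 12 and for 7439 expressed genes of the 18 chromosomes other than 5 and 12. The chromosome 12 distribution has a median of -0.32, the other one of 0.02, and both have a similar width.

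The shift was present in each array. For every array, the median over members of the gene's level minus that gene's mean over 12 arrays was taken. In arrays 2, 3 and 4 this median was 0.18, 0.16 and 0.18 for ESC low, and 0.16, 0.17 and 0.13 for ESC high. It was -0.18, -0.13 and -0.15 for iPSC low, and -0.11, -0.15 and -0.24 for iPSC high. The ESC mean was 0.16 ± 0.02 (SD, n = 6) and the iPSC mean -0.16 ± 0.05 (SD, n = 6), and the cell types did not overlap. The iPSC high arrays spread most, with array 4 lowest. For 18 chromosomes together, leaving out 5 and 12, the same measure stayed between -0.016 and 0.069. The arrays were quantile-normalised together and hold no other cell type for reference, so a lower level in iPSC and a higher level in ESC cannot be told apart. In bulk samples fewer cells of a type and less RNA per cell cannot be told apart either.

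**Figure D2:**
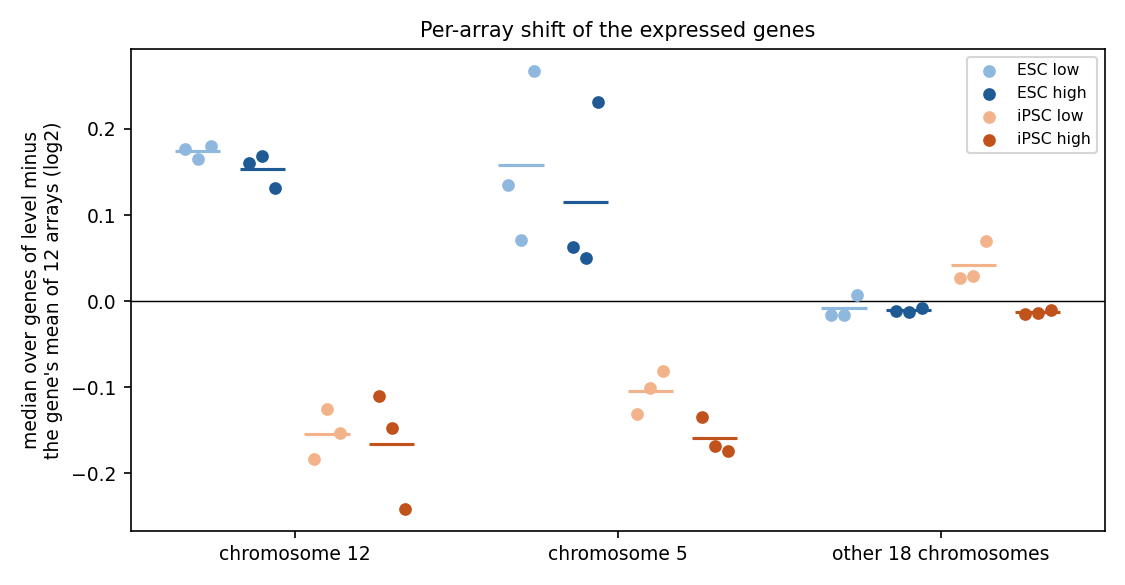
Median over expressed genes of the log2 level minus the gene's mean of 12 arrays, 1 point per array, with a line at each group's mean, for chromosome 12, chromosome 5 and the other 18 chromosomes. On chromosome 12 the 6 ESC arrays lie between 0.13 and 0.18 and the 6 iPSC arrays between -0.24 and -0.11.

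The difference was of the same size in both sorted fractions. In the low fraction the median was -0.32, and 26 members were lower and 1 higher (limma, adjusted p under 0.05; 0.226% and 0.171% of all probe sets). In the high fraction the median was -0.32 as well, and 9 members were lower and 1 higher (0.115% and 0.0714% of all probe sets), each comparison now resting on 3 arrays against 3. A difference below 0 in both fractions was found for 296 members and above 0 in both for 12. The test of the difference between the fractions called 0 members (limma interaction, 8 members at an unadjusted p under 0.05), and 0% of all probe sets, of which 1100 (4.36%) had an unadjusted p under 0.05. The members with the lowest interaction p were Eipr1, a protein of endosomal recycling, at -0.06 with low and -0.44 with high potential, Ighv11-2 at -0.33 and 0.09, Acot2, a mitochondrial acyl-CoA thioesterase, at -0.73 and -0.14, Zfyve21 at -0.55 and -0.16, and Odc1, the first enzyme of polyamine synthesis, at -0.66 and -0.17. None of these passed adjustment.

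Chromosome 12 and chromosome 5 were the chromosomes with a shifted median. Chromosome 5 had a median of -0.27 over 549 expressed genes, 92.2% of them below 0 and 31.9% called lower. The other 18 chromosomes had medians between 0.003 and 0.04, with 36.6% to 49.5% of genes below 0. Members of chromosome 12, 320 of the 25206 probe sets, made up 149 of 493 lower calls over all probe sets (30.2%). Expressed genes of chromosome 5 made up 175. Chromosome 12 was chosen in this contrast, so nothing is read from its share. The interquartile range of the differences was 0.19 on chromosome 12 and 0.16 on the 18 others, so the genes were about as widely spread around the shifted median as genes elsewhere were around theirs. The chromosomes differed between arrays: on chromosome 5 the ESC arrays numbered 4 reached 0.27 and 0.23 while the other ESC arrays lay between 0.05 and 0.13, a split that was not seen on chromosome 12.

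**Figure D3:**
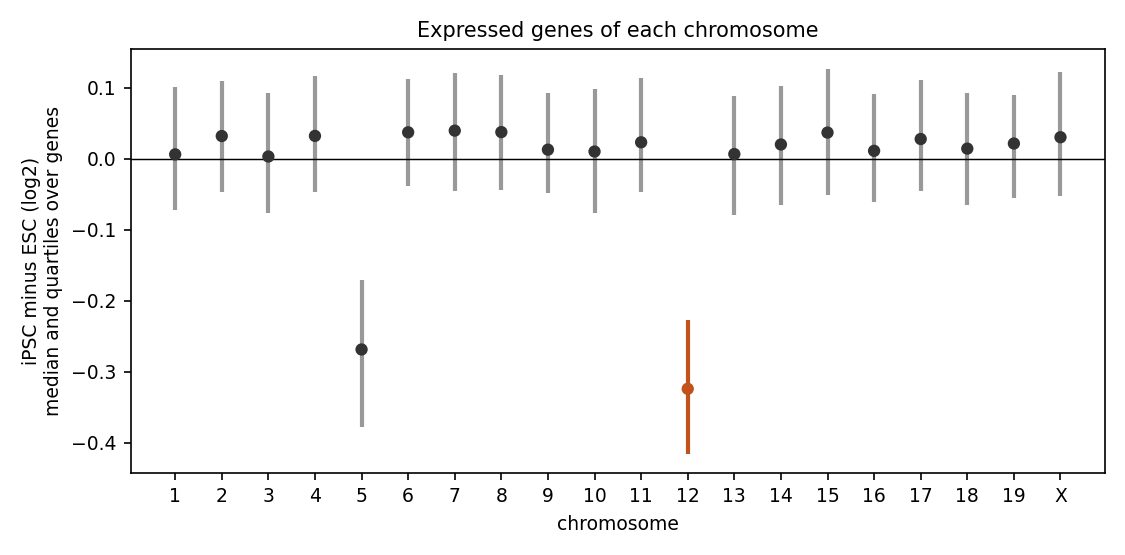
Median (point) and quartiles (bar) over expressed genes of the log2 difference, iPSC minus ESC, for each chromosome. Chromosome 12 is at -0.32 and chromosome 5 at -0.27, and the other 18 medians lie between 0.003 and 0.04.

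Along the chromosome the lower level was found in every stretch, though 14 single members lay above 0. The 320 members were put in gene order and split into 10 stretches of 32, from Rab10 near the centromere to Sp4 at the far end. The medians of the stretches were -0.33, -0.33, -0.37, -0.39, -0.32, -0.27, -0.30, -0.30, -0.33 and -0.25. In 10 of 10 stretches the medians of the iPSC arrays lay below those of all ESC arrays. The 160 members nearer the centromere had a median of -0.36 and the other 160 one of -0.29. A running median over 15 neighbours was lowest, at -0.48, from Nubpl to Ralgapa1 and highest, at -0.23, from Sipa1l1 to Abcd4. It was below 0 at each position from Adcy3 to Ighv11-2, and the genes nearer the ends lack a full window. Within the lowest window, neighbouring genes still differed: Sptssa was at -0.79, Eapp at -0.75, Cfl2, a cofilin that severs actin filaments, at -0.67, the sorting nexin Snx6 at -0.38, the chromatin remodeller Baz1a at -0.25 and the NF-kB inhibitor Nfkbia at -0.16. These window members were picked for their place after their values were seen.

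**Figure D4:**
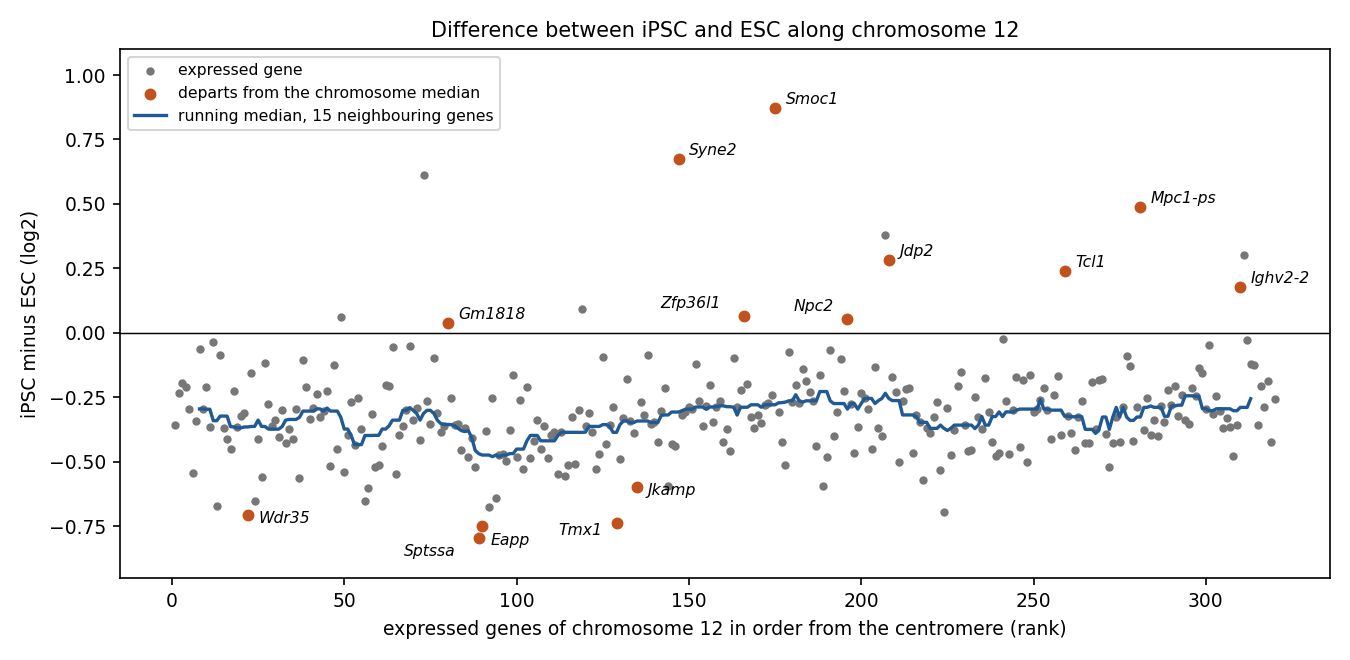
Log2 difference, iPSC minus ESC, of each of the 320 expressed genes of chromosome 12 in gene order from the centromere, with a running median over 15 neighbours and the 14 genes that departed from the chromosome median named. The running median stays between -0.48 and -0.23 from Adcy3 to Ighv11-2, and the genes nearer the ends lack a full window.

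The size of the difference did not follow the level of the gene above the threshold. In 4 classes of 80 members by rising mean level the medians were -0.30, -0.31, -0.35 and -0.33. Below the threshold the difference shrank, to -0.16 for 78 rows with a mean between 4 and 5, to -0.05 for 100 rows between 3 and 4, and to 0.00 for 319 rows at 3 or less, of which 162 were below 0. The members just inside the threshold were Klhl28 (mean level 5.00, difference -0.40), 1700030C10Rik (5.01, -0.10) and Snapc1 (5.01, -0.59). The rows just outside were Rhob (5.00, -0.45), Gm527 (4.99, -0.26) and Gskip (4.96, -0.35). The 295 protein-coding members had a median of -0.33. Of the others, the 6 small nucleolar RNAs had a median of -0.41 (from -0.52 to -0.28) and the 2 guide RNAs -0.27. All small nucleolar RNAs but Snora28 (AF357425, AF357426, DQ267100, AF357355 and DQ267102) lie side by side between Wdr25 and Ppp2r5c. Those 2 genes are counted below as neighbours of the imprinted Dlk1-Dio3 domain. The class median thus rests mostly on 1 cluster, which the exclusion by symbol did not remove. The 7 lncRNAs were at -0.12, the 5 V segments and the 4 pseudogenes both at -0.03, and the unclassed RNA, Gm1818, at 0.04.

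Some members departed from the chromosome. A departure is the difference left after each array's median over the expressed genes of a gene's own chromosome is subtracted, tested with limma and adjusted over all probe sets. By this measure, which was chosen after the data were seen, 14 members departed, 9 above the chromosome median and 5 below. Over all probe sets 1.27% lay above and 0.667% below. The measure planned at first subtracted the chromosome 12 median from every probe set and called 26 members above and 26 below. It also called 76.5% of all probe sets above and 0.436% below, since unshifted genes of other chromosomes then count as departing, and this eases the adjustment. The 14 are therefore the ones described. On values centred on the chromosome 12 median, arrays of the cell types did not overlap for 10 of the 14, and for 28.9% of all probe sets. In 12 fits with 1 array left out, 6 members (Smoc1, Syne2, Mpc1-ps, Jdp2, Tcl1 and Npc2) were called each time, and the same 6 with replicate number as a random block. The other 3 above the median kept the call in 1 to 3 of the 12 fits. With low and high arrays averaged, only Smoc1 was called (adjusted p = 0.00718, limma).

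Smoc1, a secreted matrix protein that modulates BMP signalling, stood farthest above the chromosome. Its levels were 6.12, 5.79 and 5.80 in ESC low and 6.21, 6.08 and 6.04 in ESC high. They were 6.81, 6.96 and 6.82 in iPSC low and 7.08, 6.65 and 6.97 in iPSC high. Every iPSC array lay above every ESC array, the single such case on the chromosome. Smoc1 rose by 0.87 ± 0.09 (SE) on the log2 scale in iPSC (adjusted p = 0.000685, limma) and departed from the chromosome median by 1.19 ± 0.09 (adjusted p = 5.03e-05, limma). Its promoter was not among those matched.

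Syne2 encodes the giant nesprin-2, which ties the nuclear envelope to the cytoskeleton. Its levels were 5.79, 5.65 and 5.32 in ESC low, 5.69, 5.35 and 5.27 in ESC high, 6.35, 6.12 and 6.45 in iPSC low, and 6.19, 5.77 and 6.24 in iPSC high. The single overlap was iPSC high array 3, which lay under the highest ESC array. Syne2 rose by 0.67 ± 0.12 (SE; adjusted p = 0.00898, limma) and departed by 0.99 ± 0.12 (adjusted p = 0.00182, limma). The promoter of Syne2 shown above has 3 GC boxes in the printed window.

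For 7 more members above the chromosome median, the difference from ESC did not itself pass the test, and what was called is their distance from the chromosome. Mpc1-ps is a pseudogene of the mitochondrial pyruvate carrier gene Mpc1, so its probe set may share signal with the parent gene. Its ESC arrays lay between 6.16 and 6.82 and its iPSC arrays between 6.52 and 7.12, a difference of 0.49 ± 0.13 (SE) and a departure of 0.80 ± 0.13 (adjusted p = 0.0127, limma). Jdp2, a repressor that pairs with Jun proteins at AP-1 sites, lay between 5.03 and 5.50 in ESC and between 5.39 and 5.87 in iPSC. It differed by 0.28 ± 0.11 and departed by 0.60 ± 0.11 (adjusted p = 0.0168, limma). Its neighbour in gene order, the AP-1 component Fos, was at 0.38 ± 0.29. Fos was highest in the iPSC arrays numbered 4, at 7.85 in low and 8.0 in high, and the other iPSC arrays lay between 6.22 and 6.89. ESC arrays of Fos lay between 5.85 and 7.10, and its departure of 0.70 was called by the planned measure only (adjusted p = 0.0396, limma), not with own-chromosome centring (adjusted p = 0.267, limma).

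Tcl1, a co-activator of the kinase Akt that is abundant in naive pluripotent cells, also lay above the chromosome. Its levels were 8.04, 8.42 and 8.58 in ESC low, 8.39, 8.66 and 8.60 in ESC high, 8.70, 8.60 and 8.58 in iPSC low, and 8.75, 8.78 and 8.70 in iPSC high. The cell types overlapped, and the lowest array was ESC low array 2. Tcl1 differed by 0.24 ± 0.09 and departed by 0.56 ± 0.09 (adjusted p = 0.0135, limma). Npc2, the soluble cholesterol-binding protein of lysosomes, differed by 0.05 ± 0.06 and departed by 0.37 ± 0.06 (adjusted p = 0.0135, limma). Its arrays lay between 8.22 and 8.52 in ESC and between 8.38 and 8.48 in iPSC, full overlap of the cell types on the deposited scale. Zfp36l1, an RNA-binding protein that speeds decay of AU-rich mRNAs, lay between 9.21 and 9.41 in ESC and between 9.18 and 9.62 in iPSC. It differed by 0.06 ± 0.08 and departed by 0.38 ± 0.08 (adjusted p = 0.0315, limma; 0.0609 with the random block). Ighv2-2, an immunoglobulin V segment whose family members resemble each other, lay between 6.07 and 6.46 in ESC and between 6.03 and 6.71 in iPSC. It departed by 0.49 ± 0.10 (adjusted p = 0.0344, limma; 0.0859 with the block). The departure of Ighv2-2 came with a difference of 0.41 between the high fractions and -0.05 between the low ones. The predicted gene Gm1818 departed by 0.36 ± 0.08 (adjusted p = 0.0459, limma; 0.1 with the block). For all 3 genes the cell types overlapped on the deposited scale. Gm1818 and Ighv2-2 are outside the rule for named genes and are listed to complete the 9.

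**Figure D5:**
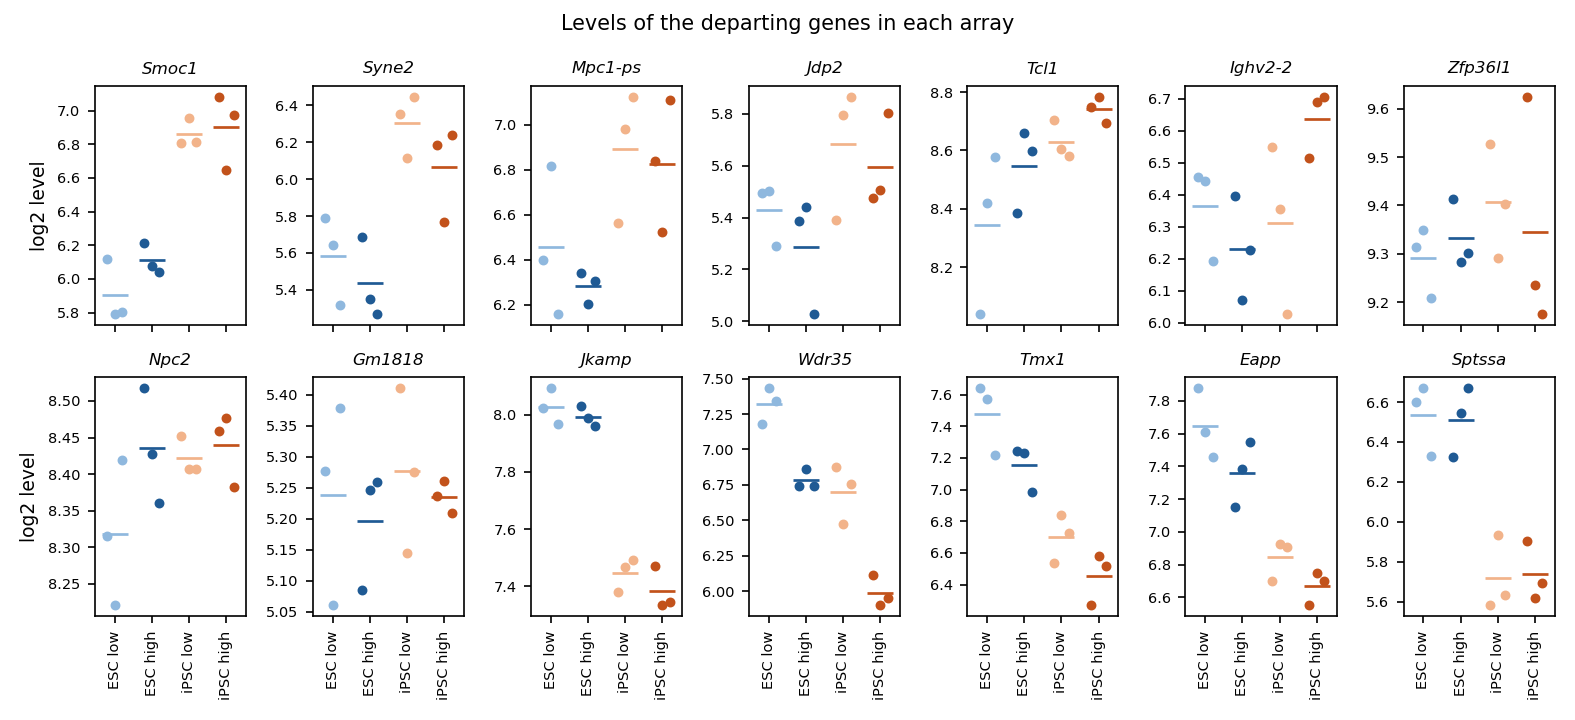
Log2 level in each array of the 14 members that departed from the chromosome median, with a line at each group's mean of 3 arrays; each panel has its own scale. Smoc1 shows iPSC arrays from 6.65 to 7.08 above ESC arrays from 5.79 to 6.21, and Sptssa shows the reverse order.

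The 5 members below the chromosome median were each lower in iPSC by more than the chromosome as a whole. Sptssa, a small subunit of serine palmitoyltransferase, which starts sphingolipid synthesis, had levels of 6.60, 6.67 and 6.33 in ESC low and 6.32, 6.54 and 6.67 in ESC high. In iPSC low they were 5.58, 5.93 and 5.63, and in iPSC high 5.90, 5.62 and 5.70, all below the ESC arrays. Sptssa fell by 0.79 ± 0.10 (SE; adjusted p = 0.00146, limma) and departed by -0.48 ± 0.09 (adjusted p = 0.023, limma; 0.0649 with the random block). Its neighbour Eapp, a nuclear phosphoprotein that binds E2F factors, lay between 7.15 and 7.88 in ESC and between 6.55 and 6.92 in iPSC. It fell by 0.75 ± 0.09 and departed by -0.43 ± 0.10 (adjusted p = 0.0456, limma; 0.107 with the block). Tmx1, a thioredoxin-like redox enzyme of the ER membrane, lay between 6.99 and 7.64 in ESC and between 6.27 and 6.84 in iPSC. Neither gene's cell types overlapped. Tmx1 fell by 0.74 ± 0.10 and departed by -0.42 ± 0.10 (adjusted p = 0.0497, limma; 0.0855 with the block).

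Jkamp, an ER membrane protein linked to degradation of misfolded proteins, lay between 7.96 and 8.09 in ESC and between 7.33 and 7.49 in iPSC, with no overlap. It fell by 0.60 ± 0.06 (adjusted p = 0.000641, limma) and departed by -0.28 ± 0.06 (adjusted p = 0.0283, limma; 0.0645 with the block). Wdr35, a subunit of the retrograde intraflagellar transport complex of cilia, fell by 0.71 ± 0.08 and departed by -0.39 ± 0.08 (adjusted p = 0.0395, limma; 0.0728 with the block). Each of these 5 departures lost its call in 7 or more of the 12 fits with 1 array left out, and with ESC low array 3, ESC high array 3, ESC high array 4, iPSC high array 3 or iPSC high array 4 left out none was called. Eapp is outside the rule for named genes and completes the 5.

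Members near the chromosome median show what the common difference looked like. The phosphatase Ppm1a, close to the median but not among the nearest, lay between 7.69 and 7.88 in ESC and between 7.40 and 7.54 in iPSC. Its arrays did not overlap, and it fell by 0.32 ± 0.06 (SE; adjusted p = 0.014, limma). Adam17, the protease that sheds membrane-bound growth factors, lay between 6.99 and 7.18 in ESC and between 6.63 and 6.93 in iPSC, again with no overlap. Its difference of -0.33 ± 0.07 passed the main fit (adjusted p = 0.0236, limma) but not the fit with the random block (0.052), and 6 of the 12 fits with 1 array left out lost the call (adjusted p up to 0.0656). Rpl36al, which encodes a ribosomal protein, lay between 6.06 and 6.66 in ESC and between 6.03 and 6.27 in iPSC. These ranges overlapped, and its difference of -0.33 ± 0.09 did not pass (adjusted p = 0.0915, limma). With Adam17 and Rpl36al, the members nearest the median were Sdc1, Coa8, Zc3h14 and Ahsa1. Of these, Zc3h14 was called (adjusted p = 0.0363, limma) and Ahsa1 was not (adjusted p = 0.0524, limma). Both were at -0.32, so the call does not set them apart. Ahsa1 was called with a variance trend (adjusted p = 0.0177, limma) and not with the random block (0.101).

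By role, the medians of most groups lay close to that of the chromosome. These lists are described by counts beside -0.32 and 46.6% lower over all members and 1.96% over all probe sets, and no list is set apart from the others by a test. Counts with replicate number as a random block follow in brackets, and with low and high arrays averaged at most 1 member of any list was called. Of 12 transcription and growth regulators, 0 were lower or higher by the test and 8 were below 0, with a median of -0.18. The lowest was the ETS factor Etv1, outside the rule for named genes, at -0.41 ± 0.28, and the highest was Fos. The nuclear receptor Esrrb, which sustains naive pluripotency, had levels of 7.67, 7.66 and 7.73 in ESC low, 7.63, 7.78 and 7.64 in ESC high, 7.60, 7.40 and 7.47 in iPSC low, and 7.45, 7.38 and 7.51 in iPSC high. Its iPSC arrays all lay under its ESC arrays, but the difference of -0.22 ± 0.06 did not pass adjustment (adjusted p = 0.0957, limma). Mycn was at -0.12 ± 0.09, Yy1, a zinc-finger regulator, at -0.19 ± 0.07, and the Krüppel-like factor Klf11 at -0.23 ± 0.11, none of them called.

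Replication and repair genes were lower in 9 of 15 (6 with the block), with a median of -0.37 and all 15 below 0. Rrm2, the ribonucleotide reductase subunit that makes DNA precursors, lay between 9.16 and 9.40 in ESC and between 8.65 and 8.95 in iPSC. It fell by 0.52 ± 0.07 (adjusted p = 0.00264, limma). Fancm, a DNA translocase of the Fanconi anaemia pathway, fell by 0.56 ± 0.09, the kinase Vrk1 by 0.46 ± 0.09 and, in the fit without the block only, the DNA end-processing enzyme Tdp1 by 0.31 ± 0.07 (adjusted p = 0.0332, limma; 0.0588 with the block). Ccnk, the cyclin partner of transcription kinases, was at -0.26 ± 0.08 and was not called.

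Chromatin genes were lower in 6 of 13 (3 with the block), with a median of -0.26 and all 13 below 0. Dnmt3a had levels of 6.55, 6.90 and 6.98 in ESC low and 6.97, 6.94 and 6.92 in ESC high. It had 5.99, 6.29 and 6.49 in iPSC low and 6.24, 6.49 and 6.47 in iPSC high, all below the ESC arrays. Dnmt3a fell by 0.55 ± 0.10 (adjusted p = 0.012, limma). The co-repressor Rcor1 fell by 0.40 ± 0.07. The NuRD component Mta1, at -0.33 ± 0.08, passed without the block only (adjusted p = 0.0497, limma; 0.0862 with the block). Snapc1, a subunit of the complex that starts small nuclear RNA transcription, lay between 5.09 and 5.46 in ESC and between 4.46 and 4.91 in iPSC. It is a member through its ESC arrays alone, so its difference of -0.59 is a description, and without it 5 of 12 were called. Asxl2 and Gtf2a1 were both at -0.21 and were not called.

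RNA-processing genes were lower in 12 of 17 (7 with the block), with a median of -0.36 and all 17 below 0. Dicer1 fell by 0.41 ± 0.07 (adjusted p = 0.00598, limma), with ESC arrays from 7.87 to 8.18 and iPSC arrays from 7.52 to 7.76. The poly(A) polymerase Papola fell by 0.39 ± 0.07 and the splicing factor Prpf39 by 0.55 ± 0.08. Slirp, which binds mitochondrial mRNAs, differed by -0.69, with ESC arrays from 5.25 to 6.04 and iPSC arrays from 4.79 to 5.05. Its iPSC mean was below 5, so it too is a member through ESC, and without it 11 of 16 were called. The RNA helicase Ddx1 was at -0.28 ± 0.07 and the splicing regulator Rbm25 at -0.19 ± 0.07, neither called.

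Translation genes were lower in 8 of 10 (6 with the block), with a median of -0.38. The initiation factor Eif5 fell by 0.40 ± 0.06 (adjusted p = 0.00549, limma), the ribosomal protein gene Rps7 by 0.54 ± 0.07, the tryptophanyl-tRNA synthetase gene Wars by 0.37 ± 0.08, Bzw2 by 0.34 ± 0.07 and the signal recognition particle gene Srp54c by 0.47 ± 0.08. Ribosomal protein genes have processed copies, and Srp54c has close paralogs on the chromosome, so their probe sets may share signal. Genes of protein folding and breakdown were lower in 6 of 10 (5 with the block), with a median of -0.37. The protein disulfide isomerase Pdia6 fell by 0.43 ± 0.06, the prolyl isomerase Fkbp3 by 0.38 ± 0.07, and the proteasome subunits Psma6 and Psmc1 by 0.38 ± 0.08 and 0.42 ± 0.06. Psma3 was at -0.33 ± 0.08 (adjusted p = 0.0534, limma).

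Genes of mitochondrial proteins were lower in 4 of 11 (3 with the block), with a median of -0.40. Dld, the dihydrolipoamide dehydrogenase shared by the pyruvate and oxoglutarate dehydrogenase complexes, lay between 8.5 and 8.97 in ESC and between 7.92 and 8.20 in iPSC. It fell by 0.60 ± 0.09 (adjusted p = 0.00411, limma), whereas Dlst, the succinyltransferase core of the oxoglutarate complex, was at -0.25 ± 0.08 and was not called. Aldh6a1, an enzyme of valine breakdown, was at -0.31 ± 0.07 and passed without the block only (adjusted p = 0.0347, limma; 0.0636 with the block), a call lost in 9 of the 12 fits with 1 array left out. Vesicle traffic genes were lower in 7 of 13 (7 with the block), with a median of -0.42. The small GTPase Arf6 fell by 0.53 ± 0.06 (adjusted p = 0.00159, limma), the golgin Golga5 by 0.50 ± 0.06, the coat protein Sec23a by 0.42 ± 0.06 and the tether subunit Cog5 by 0.44 ± 0.08. The dynein heavy chain Dync1h1 was the highest of the group, at -0.09 ± 0.06 and not called.

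Signalling genes were lower in 11 of 14 (7 with the block), with a median of -0.34. The phosphatase regulator Ppp4r3a fell by 0.47 ± 0.08 (adjusted p = 0.00703, limma), Arhgap5 by 0.41 ± 0.06 and the kinase Mark3 by 0.35 ± 0.07, while Akt1 was at -0.16 ± 0.07 and the Ras exchange factor Sos2 at -0.10 ± 0.08, neither called. Metabolic and hypoxia genes were lower in 5 of 14 (4 with the block), with a median of -0.31. Gstz1, an enzyme of tyrosine breakdown, fell by 0.57 ± 0.07, and Odc1, at -0.41 ± 0.10, passed without the block only (adjusted p = 0.0464, limma; 0.097 with it). A member called here, Galc, had an iPSC mean below 5, and without it 4 of 13 were called. The hypoxia factor Hif1a was at -0.21 ± 0.07, the NAD-producing enzyme Nampt at -0.21 ± 0.07 and the creatine kinase Ckb at -0.22 ± 0.11, none called.

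Members near the imprinted Dlk1-Dio3 domain lay on the same side as the chromosome. Of 10 such neighbours 3 were lower (2 with the block), with a median of -0.27 and all 10 below 0. The small nucleolar RNAs between Wdr25 and Ppp2r5c are members but are not among these 10. The called ones were Wars, Ppp2r5c, a regulatory subunit of protein phosphatase 2A, at -0.29 ± 0.06 (adjusted p = 0.0298, limma; 0.0616 with the block), and Cinp, a replication-linked partner of cyclin-dependent kinases, at -0.38 ± 0.07. The actin regulator Evl at -0.43 ± 0.14, Mok at -0.42 ± 0.18, Tecpr2 at -0.25 ± 0.10, Wdr25 at -0.18 ± 0.08 and Wdr20 at -0.13 ± 0.14 did not pass.

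Membrane potential, a contrast that played no part in choosing the chromosome, came with no shift of the whole chromosome detected between paired high and low arrays. The per-array median over members was lower by 0.02 in the 6 high than in the 6 low arrays (exact two-sided permutation test, p = 0.781, n = 6 per fraction). That test exchanged arrays across the cell types, whose means were 0.16 (ESC) and -0.16 (iPSC). It could hardly detect a smaller shift, so no conclusion is drawn from it. By number, 2 of 6 high-low pairs were above 0, and the pair differences lay between -0.09 and 0.07 (exact sign-flip test, p = 0.5; smallest possible p 0.0312, n = 6). Medians of the 19 other chromosomes lay between -0.07 and -0.01 on the high minus low scale. Of the 320 members, 147 were higher in the high fraction and 173 lower before any test.

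Singly, 8 members (2.5%) differed between the fractions, 3 higher and 5 lower with high potential (limma, adjusted p under 0.05). The share over all probe sets was 2.5%, with 1.6% higher and 0.905% lower. Of the 3, Lsmem1 passed the level threshold through its high arrays alone. Among the 314 members with both fraction means above 5, 2 were higher and 5 lower. With replicate number as a block within cell type, 7 members were higher and 6 lower. Within ESC alone 0 members passed (limma, 32 at an unadjusted p under 0.05; 0.357% of all probe sets passed), and within iPSC alone 1, Wdr35, was lower (0.198% of all probe sets).

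Lsmem1, which encodes a small leucine-rich membrane protein, had the widest gap between the fractions among the 8. Its levels were 4.0, 4.79 and 3.22 in ESC low, 6.28, 6.29 and 4.83 in ESC high, 4.86, 4.57 and 4.59 in iPSC low, and 6.28, 6.28 and 6.49 in iPSC high. Within each cell type the high arrays lay above the low ones, and ESC array 4 was lowest in both fractions. All 6 low arrays were below 5, so the gene is a member only because of its high arrays, and its difference of 1.74 is given as a description. G2e3, a ubiquitin ligase named for its G2/M expression, had levels of 6.97, 7.06 and 7.16 in ESC low, 7.13, 7.25 and 7.36 in ESC high, 6.67, 6.74 and 6.64 in iPSC low, and 7.19, 7.11 and 7.07 in iPSC high. Its fractions overlapped in ESC and not in iPSC. G2e3 rose by 0.31 ± 0.06 (adjusted p = 0.0241, limma), and lost its call with ESC low array 2, ESC high array 3, iPSC low array 4, iPSC high array 2 or iPSC high array 3 left out (adjusted p up to 0.0622). Akap5, a scaffold for protein kinase A, rose by 0.59 ± 0.14 (adjusted p = 0.0417, limma), a call kept in 2 of the 12 fits.

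Wdr35 had the lowest p among the 5 members that fell with membrane potential. Its levels were 7.18, 7.43 and 7.34 in ESC low, 6.74, 6.87 and 6.74 in ESC high, 6.88, 6.47 and 6.76 in iPSC low, and 6.11, 5.90 and 5.95 in iPSC high. The fractions did not overlap within either cell type, and iPSC low overlapped ESC high. Wdr35 fell by 0.63 ± 0.08 (SE; adjusted p = 0.00198, limma), by 0.54 in ESC and 0.71 in iPSC. It thus differed in both contrasts, lower in iPSC than in ESC and lower in high than in low.

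The lncRNA D430020J02Rik had levels of 6.06, 6.23 and 6.55 in ESC low, 5.27, 5.94 and 5.90 in ESC high, 6.06, 6.22 and 6.62 in iPSC low, and 5.41, 4.93 and 5.46 in iPSC high. The fractions did not overlap within a cell type, and the low fractions of the cell types were alike in range. D430020J02Rik fell by 0.80 ± 0.15 (adjusted p = 0.0142, limma). Tmem18, a membrane protein, fell by 0.36 ± 0.07 (adjusted p = 0.0165, limma), with no overlap of the fractions within a cell type. Both kept the call in all 12 fits with 1 array left out, as did Wdr35. Pole2, a subunit of DNA polymerase epsilon, fell by 0.24 ± 0.06 (adjusted p = 0.0401, limma), with levels of 8.23, 8.22 and 8.15 in ESC low, 7.97, 7.99 and 8.01 in ESC high, 7.79, 7.91 and 7.91 in iPSC low, and 7.60, 7.61 and 7.57 in iPSC high. The fractions did not overlap within either cell type, yet the call held in 1 of 12 fits and not with the block (adjusted p = 0.0637, limma). The lncRNA 1110002L01Rik fell by 0.39 ± 0.09 (adjusted p = 0.043, limma; 0.059 with the block), a call kept in 2 of the 12 fits. Pole2, Akap5 and 1110002L01Rik are outside the rule for named genes and complete the 8.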

How the data were processed

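The deposited values are log2 expression levels that the authors made for 25206 probe sets on each array. The submitters' processing notes name RMA, affy 1.36.1 and R 2.15.1. By its method RMA removes background, applies quantile normalisation across arrays and combines the probes of a set. Which chip definition and genome build were used is not given in the sources used here. Detection calls were not used here, and the number of arrays limits the precision. The platform annotation gave 1 symbol for 23185 probe sets, several for 0 and none for 2021. Each of the 23185 matched a gene number in a RefSeq table of assembly GRCm38.p6, which served for chromosome and gene order only. A further 9 rows above the level, on the chromosome by gene number but without a platform symbol, are not reported here.

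The members and gene lists were chosen with earlier results of these data known. The fit was made with limma 3.58.1 in R 4.3.3 (1 mean per group over 12 arrays, eBayes without trend, Benjamini-Hochberg adjustment over all probe sets, threshold 0.05). Errors after ± are standard errors of that fit unless marked SD. Permutation and sign-flip tests used scipy 1.17.1. The scripts were tested on simulated data. Named genes were the 10 largest planned departures in each direction with arrays apart, list members departing or among the 4 of highest level, the 3 nearest the median among the 160 members on either side of the midpoint, the 5 lowest p of high minus low and of the interaction, the domain neighbours, 3 on either side of the level threshold and a fixed set.

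Residuals of low and high arrays of 1 cell type and number correlated at 0.11 to 0.34, against -0.23 to 0.003 for other numbers, so numbers were taken to pair fractions within a cell type, from the data alone. Across cell types equal numbers gave -0.09 to 0.13 and were not taken as pairs.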

Additional observations from a re-analysis of the deposited data

Results flagged for a closer look

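For the genes named by the rule, levels centred on the chromosome median were searched in each cell type for an array lying far from the other 5 (Dixon's test at its 95% critical value). Of 188 tests 9 met the rule, and chance alone gives about 1 in 20. The levels printed here are the deposited ones without centring, so their gaps can differ from those that met the rule. In ESC low array 2, Ccnk stood high at 9.92 (other ESC arrays 9.47 to 9.59), Cinp at 7.42 (7.04 to 7.15) and Mark3 at 8.31 (8.12 to 8.19), and Dnmt3a stood low at 6.55 (6.90 to 6.98). In ESC low array 3, Adam17 stood low at 6.99 (7.08 to 7.18) and Gstz1 at 6.93 (7.12 to 7.21), and Mpc1-ps stood high at 6.82 (6.16 to 6.40). Sdc1 stood low in iPSC high array 2 at 6.25 (other iPSC arrays 6.40 to 6.60), and Srsf5 in iPSC low array 4 at 9.17 (9.38 to 9.48). Of the 9, 7 were ESC low arrays.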

How the results depend on the processing

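The chromosome median of -0.32 stayed between -0.34 and -0.30 with each array left out in turn, and became -0.13 with no level threshold, a set that adds rows at low level. The 149 lower calls became 10 with the replicate block that averages low and high arrays, 26 with low arrays alone and 9 with high arrays alone, and 92 to 126 with 1 array left out. They were 105 with the random block and 213 with dim probe sets left out before the fit. The 2 higher calls became 1 with that averaging, 1 within each fraction, and 2 to 3 with 1 array left out. Planned departures (26 above, 26 below) became 4 and 53 against the median of all chromosome 12 rows, and 9 and 5 with every chromosome on its own median (chosen after seeing the data). With 1 array left out they were 20 to 28 and 21 to 28. Against that all-row median the departure of Akt1 turned from 0.16 to -0.031. The 9 became 6 with the random block, 1 with averaging and 6 to 9 with 1 array left out, and the 5 became 0, 0 and 0 to 4. For high minus low, the 3 higher calls became 7 without dim probe sets, 5 with a variance trend, 7 with the replicate block and 1 to 4 with 1 array left out, and the 5 lower calls 3 to 6. The high minus low median lay between -0.06 and 0.03 with 1 array left out. It was positive without any 1 ESC low or iPSC high array, and negative without any 1 ESC high or iPSC low array. Leaving out 1 array makes the cell types unequal between the fractions, so these values do not bear on its sign. With all 12 arrays it was -0.06 after centring each array on its median. It was 0.02 after centring on expressed genes of the other chromosomes, so its sign is not settled. The interaction had 0 calls in each fit with 1 array left out. The cause of the other changes was not tested, beyond the fewer arrays or genes that a setting holds. Signal over background was not measured here, so no level can be called absent.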
